A study of Mus musculus with 16 samples.

Results

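Solute carriers are the membrane proteins that move sugars, amino acids, metals, vitamins and ions into and out of cells and organelles, and this account follows the 58 solute carrier genes with enough tags to be read in mouse liver. They are the gene symbols made of Slc, a family number, the letter a and a member number that had 50 or more tags over all 16 livers together, less Slc2a2, Slc10a1, Slc16a1, Slc16a7, Slc1a2 and Slc27a5. The table held 20826 symbols, of which 328 follow that pattern and 202 had a tag. The genes were chosen by their total over all mice, which makes no use of the feeding groups. Just inside the limit stood Slc7a7 with 59 tags, Slc48a1 with 58 and Slc39a13 with 52, and just outside it Slc38a10 with 45, Slc35a2 with 44 and Slc26a11 with 44. The pattern also takes in Slc9a3r1, a scaffold protein that binds sodium/hydrogen exchangers and other membrane proteins and is itself no transporter.

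The livers came from male C57BL/6J mice in 4 feeding groups of 4, each mouse its own library. HFW mice ate a high-fat diet with 1% WEPAK, an extract of krill made with water, and HF mice a high-fat diet (45% fat) alone. NW mice ate a normal diet with 1% WEPAK, and N mice a normal diet (10% fat) alone. The labels of the HFW and NW mice give no fat percentage. Feeding lasted 18 weeks, and the label age is 4 weeks. The RNA was from whole liver, so fewer cells of a type and less RNA per cell cannot be told apart.

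Each library counted SuperSAGE tags, short sequences beside an NlaIII site of a captured transcript, which makes a level independent of transcript length. Named genes received 56655 to 149349 tags per library. The HF libraries were deeper, with 75749 ± 21588 tags in HFW, 118882 ± 23746 in HF, 74198 ± 30660 in NW and 75963 ± 16768 in N (SD, n = 4 each). Levels are given in CPM, counts scaled to the normalized total of the 1046 genes tested, and 1 tag was worth 7.06 to 21.2 CPM. Along the leading principal component, taken from those tested genes whose levels varied most, N mouse 4 scored -17.0, below every HF mouse (-16.0 to -8.86). N mouse 8 scored 4.98, among the HFW mice (-0.29 to 7.11). Results that depend on these mice are given with and without them. The summed level of 12 hepatocyte markers ran from 22898 to 28521 CPM in HFW, 14106 to 27065 in HF, 29942 to 48697 in NW and 19121 to 38239 in N. Of 8 of these markers tested, 2 (Tdo2 and Ttr) were higher with WEPAK in the mean over both diets. Summed levels of 11 Kupffer cell markers (10 with a tag) overlapped between all groups, at 572 to 1442 CPM in HFW, 642 to 1236 in HF, 635 to 1065 in NW and 840 to 1107 in N, with Cd68 at 0. Stellate cell markers (7 of 9 with a tag, Rgs5 and Acta2 at 0) summed to 967 to 4613 CPM in HFW, 618 to 4505 in HF, 462 to 1206 in NW and 619 to 1210 in N. Endothelial markers summed to 754 to 878 CPM in HFW, 916 to 1123 in HF, 481 to 846 in NW and 525 to 1059 in N, so that HFW and HF sums did not overlap. Of 2 tested endothelial markers 1 (Oit3) was lower with WEPAK in the mean (-0.57, edgeR adjusted p = 0.0475). Their part in the results on transporters was not tested.

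Liver is the organ that clears amino acids, sugars, bile constituents and metals from portal blood, and most of that exchange runs through solute carriers of the hepatocyte's plasma membrane. A second set, the Slc25 family, sits in the inner mitochondrial membrane and trades nucleotides, amino acids and carboxylates between mitochondrion and cytosol. The Slc39 (ZIP) family brings zinc, and in some members iron and manganese, into the cytosol from outside the cell or from organelles.

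The tag that stands for a gene is the stretch that begins at the last CATG, the NlaIII site, of its transcript. Shown here are the 26-base tags predicted from GENCODE vM21 transcripts (build GRCm38) for the genes that changed with WEPAK, for Slc38a4, the most abundant, and for Slc2a5. They are written 5′ to 3′ on the transcript's strand, with the NlaIII site in capitals. Which tags were counted is not given in the labels.
Slc39a7: CATGatggtactgattgcccatcttg (chr17:34028801-34028826, minus strand, exon 8 of 8, coding sequence)
Slc39a14: CATGtaggacacgcctcccttttcct (chr14:70306377-70306402, minus strand, exon 10 of 10, 3′ UTR)
Slc39a1: CATGgtggtccatacctagaaaaaaa (chr3:90253410-90253435, plus strand, exon 4 of 4, 3′ UTR)
Slc25a5: CATGttgtataatataccatatcttg (chrX:36798576-36798601, plus strand, exon 4 of 4, 3′ UTR)
Slc25a13: CATGgtcagaggcttgtgtgtttgtg (chr6:6041247-6041272, minus strand, exon 18 of 18, 3′ UTR)
Slc12a7: CATGttttttcctttttatagacttt (chr13:73816667-73816692, plus strand, exon 24 of 24, 3′ UTR)
Slc24a6: CATGttggactgtggatctaaacact (chr5:120533538-120533563, plus strand, exon 15 of 15, 3′ UTR)
Slc13a3: CATGatttctgatactgctgatcaaa (chr2:165405331-165405356, minus strand, exon 13 of 13, 3′ UTR)
Slc22a18: CATGgtgaacttgcttgtcctattgg (chr7:143499200-143499225, plus strand, exon 11 of 11, coding sequence)
Slc9a3r1: CATGgcaatggcctcatccttaaaat (chr11:115181031-115181056, plus strand, exon 6 of 6, 3′ UTR)
Slc38a4: CATGgacgcttacacgggatggagtt (chr15:96995603-96995628, minus strand, exon 16 of 16, 3′ UTR)
Slc2a5: CATGgtgagcaccaagggagccatca (chr4:150143942-150143967, plus strand, exon 14 of 14, 3′ UTR)
The predicted tag was found for 56 of the 58 genes, all but Slc20a1 and Slc9a8. It lay in the 3′ UTR in 47 of them and in the coding sequence in 9. For Slc39a7 alone the same tag occurs in another annotated gene, Gm20427, so its counts may include transcripts of that gene. The GC content of the tags ran from 11.5% to 65.4% with a median of 46.2%, the same median as over the tested genes. Across 31 tested solute carriers with a tag, the tag's GC content and the mean WEPAK effect had a Spearman rho of -0.30, against 0.01 over 1035 tested genes. These are correlations across genes, given as a description.

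Together the 58 genes held 69371 tags, 5.03% of all tags in named genes. One of them, Slc38a4, which carries neutral amino acids with sodium at the hepatocyte membrane, accounted for 63.2% of those tags and ranked 4 by mean level among all genes. The sum over the other 57 was 20446 ± 807 CPM in HFW, 19534 ± 2068 in HF, 22251 ± 1306 in NW and 21211 ± 1279 in N (SD, n = 4 each), and the ranges of all 4 groups overlapped. Without normalization factors the order of HFW (17974 CPM) and HF (17989) turned round. Next in order after Slc38a4 (36008 ± 8730 CPM, SD over 16 mice) came the sulfate and oxalate exchanger Slc26a1 (3158 ± 517), the glutamine transporter Slc38a3 (2634 ± 674) and the fatty acid transporter and acyl-CoA synthetase Slc27a2 (2538 ± 499). The ranges of these 3 over the 16 mice overlapped, and the differences between them were not tested. From Slc25a5 (1548 CPM) the levels ran down to Slc39a13 (36.1 CPM), and 50 of the 58 had a tag in every library.

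**Figure D1:**
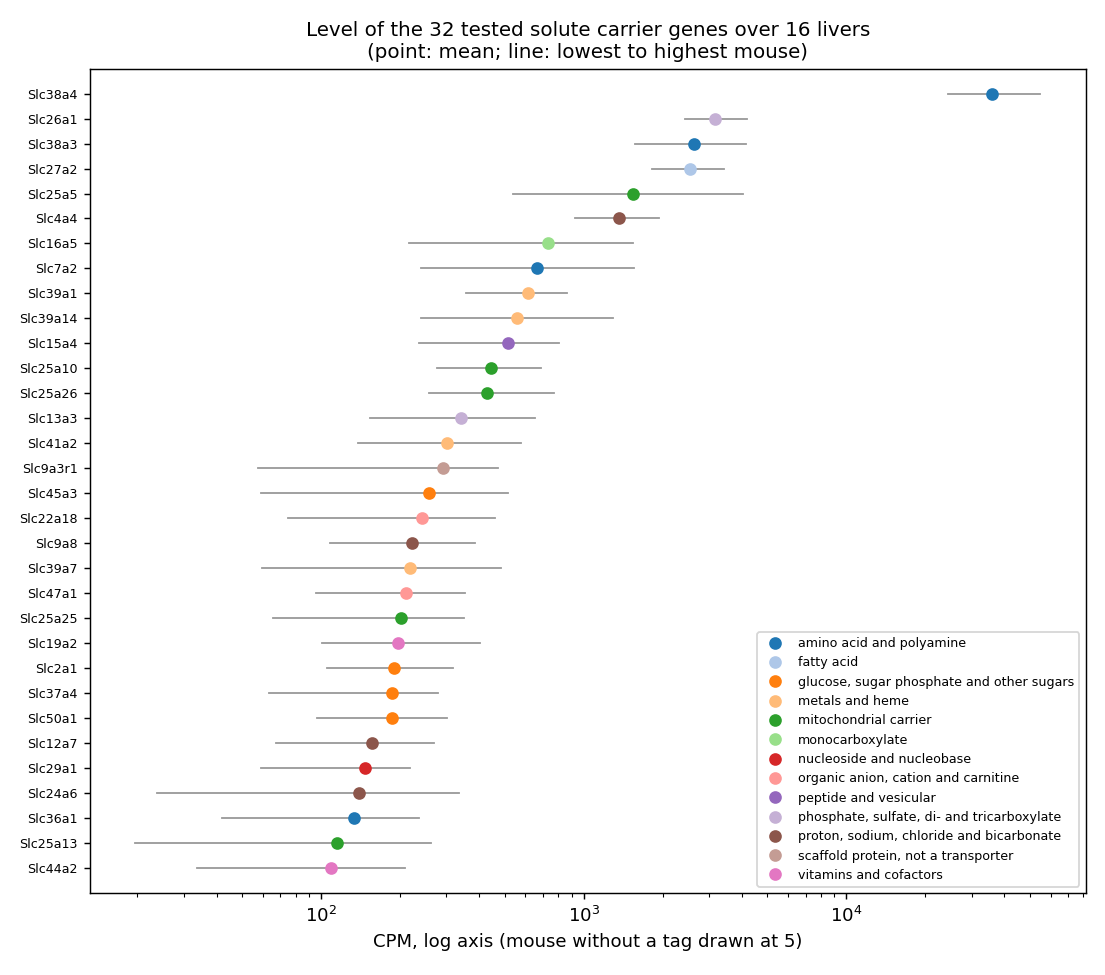
Mean level of each of the 32 solute carrier genes with enough tags to be tested, over 16 livers (points, coloured by substrate group) with a line to the lowest and highest mouse, in CPM on a log axis. Slc38a4 stands alone at 36008 CPM, and the next, Slc26a1, lies at 3158 CPM.

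The effect of WEPAK was taken on each diet and, over both diets, as the mean of the 2 differences. Of the 58 genes, 32 had enough tags to be tested, which took 126 CPM of the unnormalized total in at least 4 mice, and 26 did not. Slc39a7, Slc12a7 and Slc24a6 reached that minimum in enough mice only with WEPAK, and Slc25a13 only without it, so these 4 were tested because of the side where they were high. In the mean over both diets 11 of the 32 passed the threshold (edgeR quasi-likelihood test, Benjamini-Hochberg adjusted p under 0.05 over 1046 genes), where 31.3% of all genes did. Higher with WEPAK were 8 (15.2% of all genes): the zinc transporters Slc39a7, Slc39a14 and Slc39a1, the ADP/ATP carrier Slc25a5, the ion transporters Slc9a8, Slc12a7 and Slc24a6, and the dicarboxylate transporter Slc13a3. Lower were 3 (16.1% of all genes): the aspartate/glutamate carrier Slc25a13, Slc22a18 of the organic cation family, and the scaffold Slc9a3r1. The share of solute carriers called was close to that of all genes, and the median log2 fold change was 0.13 over the 32, against 0.03 over all genes tested. Without N mice 4 and 8 the count was 8, 4 higher and 4 lower, and Slc9a8 (adjusted p = 0.0896), Slc12a7 (0.227), Slc24a6 (0.123), Slc13a3 (0.0721) and Slc25a13 (0.0521) no longer passed. The count then took in Slc38a3 (-0.58, 0.0296) and Slc2a5, which entered that fit only because a group of 2 mice lowers the filter, through 2 mice without WEPAK. The lowered filter tested more solute carriers, of which 8 reached the minimum in enough mice only with WEPAK and 3 only without it. The count of that fit is therefore not comparable with 11 of 32. With no filter on low counts 8 of the 58 passed, 3 higher and 5 lower, where 2.50% of 10171 genes did (0.639% higher and 1.86% lower). That fit shifted the median of all tested genes by -0.13 and no longer called Slc39a1, Slc9a8, Slc12a7, Slc24a6 and Slc13a3. The 58 were chosen for 50 or more tags, while the 10171 take in every gene with a tag. Their shares in the fit with no filter are therefore not comparable.

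Among 9 genes for zinc, magnesium and heme, 4 were tested and 3 zinc carriers rose in the mean over both diets (15.2% of all genes were higher). One of them, Slc39a7, was tested because of the WEPAK mice, where it was high, so this count leans towards higher genes. Slc39a7, which releases zinc from the endoplasmic reticulum, had 210, 237, 273 and 255 CPM in HFW livers, against 59.5, 98.9, 157 and 105 CPM in HF livers. On the normal diet it had 289, 250, 486 and 452 CPM in NW livers, against 118, 140, 224 and 150 CPM in N livers. Every WEPAK mouse was above every mouse fed the same diet without it, on both diets. The log2 fold change was 1.18 ± 0.24 (SE, edgeR adjusted p = 0.000606) in the mean, 1.18 in HFW over HF (adjusted p = 0.0239) and 1.18 in NW over N (adjusted p = 0.0198). The call on the high-fat diet was lost without HF mouse 23 (adjusted p = 0.105), HF mouse 25 (0.0898), HFW mouse 38 (0.0804) or HFW mouse 40 (0.0758). On the normal diet it was lost without N mouse 4 (0.0924), N mouse 5 (0.0626), NW mouse 15 (0.0760) or N mice 4 and 8 together (0.185), and the highest adjusted p of the mean over any 15 mice was 0.00207.

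Slc39a14, which takes up zinc, iron and manganese at the hepatocyte membrane, had 288, 770, 694 and 616 CPM in HFW livers, against 440, 268, 240 and 402 CPM in HF livers. On the normal diet the values were 751, 806, 1290 and 707 CPM in NW livers, against 269, 539, 389 and 469 CPM in N livers. NW and N livers did not overlap, while HFW mouse 34 fell among the HF mice. The mean log2 fold change was 0.94 ± 0.22 (SE, edgeR adjusted p = 0.00205), with 1.07 in NW over N (adjusted p = 0.0222) and 0.80 in HFW over HF, which did not pass (adjusted p = 0.0918). The NW over N call was lost without N mouse 4 (0.106), NW mouse 15 (0.0986) or N mice 4 and 8 together (0.179), and without HFW mouse 34 the high-fat difference passed (1.03, 0.0266). The difference between the diets was itself not past the threshold (-0.27, adjusted p = 0.997).

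Slc39a1, a zinc importer of the plasma membrane, had 721, 671, 736 and 648 CPM in HFW livers, against 357, 381, 462 and 383 CPM in HF livers. Those groups stood well apart. In the mice fed the normal diet it had 616, 797, 783 and 864 CPM in NW livers, against 454, 571, 598 and 769 CPM in N livers, and there the groups overlapped. Over both diets the log2 fold change was 0.58 ± 0.18 (SE, edgeR adjusted p = 0.0126), with 0.80 in HFW over HF (adjusted p = 0.0348) and 0.36 in NW over N (0.366). In HFW over HF the adjusted p lay between 0.0507 and 0.109 in the 9 fits that left out N mouse 7, NW mouse 15, HF mouse 23, 25 or 29, or any 1 HFW mouse, and with all libraries thinned to the smallest it was 0.126.

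The other tested gene of this group, the magnesium transporter Slc41a2, averaged 319 CPM in HFW, 236 in HF, 313 in NW and 341 in N and did not pass (mean log2 fold change 0.17, adjusted p = 0.691). Untested were the zinc transporters Slc39a4, Slc39a3 and Slc39a13, the magnesium transporter Slc41a1 and the heme transporter Slc48a1, whose means over 16 mice ran from 36.1 CPM for Slc39a13 to 91.5 CPM for Slc39a4. Slc39a13, with 1 to 3 tags in each WEPAK mouse, averaged 21.4 CPM in HFW, 61.7 in HF, 19.8 in NW and 41.4 in N, without a test. Summed over all 9 genes, HFW mice had 2110, 2329, 2082 and 2040 CPM, against 1427, 1321, 1313 and 1532 CPM in HF mice. NW mice had 2560, 2409, 3046 and 2611 CPM, against 1579, 1723, 2003 and 1895 CPM in N mice. The sums did not overlap on either diet. Without Slc39a1, Slc39a7 and Slc39a14 they did, at 610 ± 218 CPM in HFW, 559 ± 78.1 in HF, 634 ± 185 in NW and 628 ± 161 in N (SD, n = 4 each). Those 3 genes were left out because they had passed for WEPAK in these same mice, so the overlap of the rest is no separate result.

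**Figure D2:**
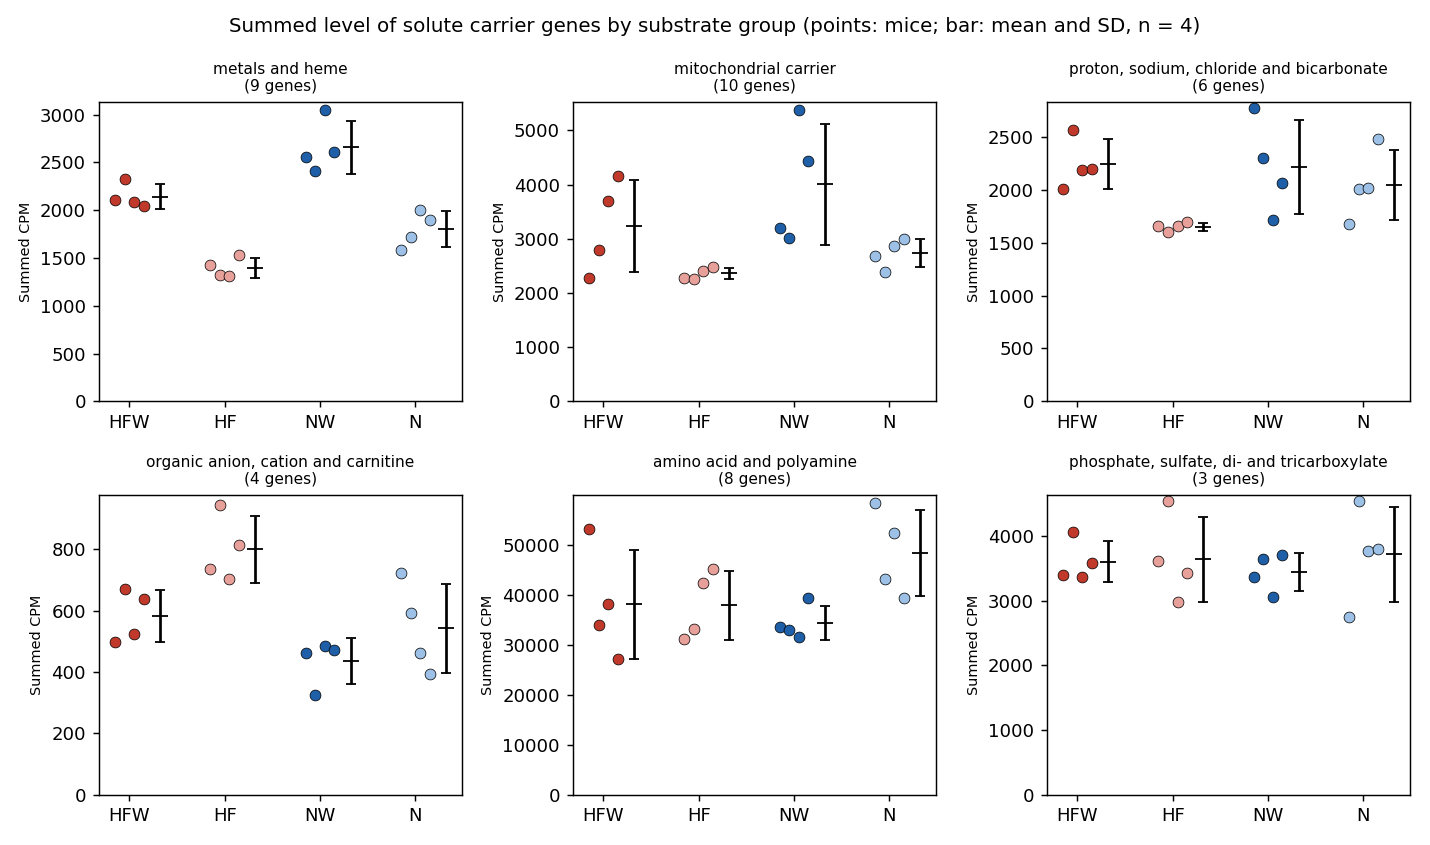
Summed CPM of the genes in 6 substrate groups for each mouse (points), with the mean and SD of 4 mice (bars), for HFW, HF, NW and N. In the metal group HFW mice (2040 to 2329 CPM) lie above all HF mice (1313 to 1532), and NW mice (2409 to 3046) above all N mice (1579 to 2003). The amino acid sums follow Slc38a4 and overlap on both diets.

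Of 5 mitochondrial carriers tested, 1 was higher and 1 lower with WEPAK in the mean over both diets (15.2% and 16.1% of all genes). Slc25a5, the ADP/ATP carrier that exchanges mitochondrial ATP for cytosolic ADP, had 1140, 1243, 2061 and 2539 CPM in HFW livers, against 702, 713, 758 and 756 CPM in HF livers. With the normal diet the levels were 1732, 1852, 4061 and 2984 CPM in NW livers, against 538, 948, 1375 and 1370 CPM in N livers. The groups did not overlap on either diet, and the HF mice lay within a narrow band. Its mean log2 fold change was 1.29 ± 0.22 (SE, edgeR adjusted p = 8.14e-05), with 1.25 in HFW over HF (adjusted p = 0.00999) and 1.32 in NW over N (0.00787). It passed over any 15 mice in the mean, with a highest adjusted p of 0.000336. On the high-fat diet the call was lost without HFW mouse 40 (0.97, 0.0635), and on the normal diet without N mice 4 and 8 together (1.16, 0.0562). Groups that do not overlap on either diet were found for 2 of the 32 tested solute carriers, Slc25a5 and Slc39a7, and for 5.45% of all genes tested.

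Slc25a13 (citrin), which exports mitochondrial aspartate in exchange for glutamate and so serves the urea cycle and the malate-aspartate shuttle, was lower with WEPAK. It had 52.4, 118, 84.1 and 42.5 CPM in HFW livers, against 262, 261, 55.5 and 134 CPM in HF livers. In normal-diet mice it had 38.5, 67.2, 84.6 and 19.6 CPM in NW livers, against 252, 96.9, 89.7 and 188 CPM in N livers. NW and N livers did not overlap, though NW mouse 15 and N mouse 7 differed by only a few CPM, and HF mouse 28 fell among the HFW mice. The highest count behind these values was 7 tags in any WEPAK mouse, no WEPAK mouse reached the minimum for testing, and the 4 mice that did (HF mice 23 and 25, N mice 4 and 8) are just the number required. The gene was tested because of the groups where it was high. Averaged over the diets, the log2 fold change was -1.40 ± 0.37 (SE, edgeR adjusted p = 0.00557), and neither diet alone passed (-1.35, 0.0748, in HFW over HF and -1.45, 0.0823, in NW over N). Without N mice 4 and 8 the mean was -1.10 (adjusted p = 0.0521), and without HF mouse 28 the high-fat difference passed (-1.66, 0.0208).

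Of the 10 mitochondrial carriers 5 were tested, with 1 higher and 1 lower in the mean (15.2% and 16.1% of all genes). Slc25a10, the dicarboxylate carrier, had a log2 fold change of 0.03 (adjusted p = 0.937). Slc25a26, which imports S-adenosylmethionine, had -0.41 (0.166), and Slc25a25, an ATP-Mg/phosphate carrier, 0.26 (0.499). Untested were a second ATP-Mg/phosphate carrier, Slc25a23, the ornithine carrier Slc25a15, the coenzyme A carrier Slc25a42, the oxoglutarate carrier Slc25a11 and the glutamate carrier Slc25a22, with means of 62.4 to 75.9 CPM. The summed level of the group was 3234 ± 848 CPM in HFW, 2362 ± 109 in HF, 4005 ± 1109.9 in NW and 2738 ± 265 in N (SD, n = 4 each). Without Slc25a5 it was 1489 ± 235 CPM in HFW, 1629 ± 82.7 in HF, 1347 ± 142 in NW and 1680 ± 324 in N. The means of both WEPAK groups then lay below those of mice on the same diet without it, a difference that was not tested. Slc25a5 was left out because it had passed as higher with WEPAK in these same mice. Slc25a13, which had passed as lower, was kept, so the lower sum of the rest is no separate result.

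Carriers of protons, sodium, chloride and bicarbonate numbered 6, of which 4 were tested and 3 rose in the mean, where 15.2% of all genes were higher. Slc12a7 and Slc24a6 were tested because of the WEPAK mice, where they were high, so this count leans towards higher genes. Slc9a8, a sodium/hydrogen exchanger of the Golgi and other membranes, had 341, 217, 336 and 276 CPM in HFW livers, against 143, 148, 148 and 191 CPM in HF livers. On the normal diet it had 385, 173, 212 and 295 CPM in NW livers, against 118, 108, 284 and 188 CPM in N livers. HFW and HF mice did not overlap, while NW and N mice did. The mean log2 fold change was 0.74 ± 0.24 (SE, edgeR adjusted p = 0.0196), and neither diet alone passed (0.89, 0.0748, and 0.59, 0.280). The call was lost without N mouse 4 (0.0525), N mouse 5 (0.0563) or NW mouse 11 (0.0553).

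Slc12a7, a potassium/chloride cotransporter, had 223, 178, 126 and 202 CPM in HFW livers, against 107, 106, 74.0 and 105 CPM in HF livers. In the mice fed the normal diet it had 269, 173, 169 and 196 CPM in NW livers, against 67.2, 194, 179 and 131 CPM in N livers. HFW and HF mice did not overlap, and NW and N mice did. The mean log2 fold change of 0.68 ± 0.25 (SE, edgeR adjusted p = 0.0403) was close to the threshold. It was lost in 8 of the 16 fits without 1 mouse: N mouse 4 (0.112), NW mouse 11 (0.0870), HF mouse 23 (0.0575), 25 (0.0531), 28 (0.0565) or 29 (0.0538), and HFW mouse 34 (0.0620) or 40 (0.0656). The DESeq2 Wald test did not pass it either (0.0651).

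Slc24a6, called Slc8b1 in GENCODE and known as the exchanger that moves calcium out of mitochondria for sodium, had 52.4, 158, 105 and 212 CPM in HFW livers, against 23.8, 70.6, 120 and 38.3 CPM in HF livers. With the normal diet the levels were 231, 182, 233 and 334 CPM in NW livers, against 84.0, 215, 120 and 56.3 CPM in N livers. The groups overlapped on both diets. Over both diets the log2 fold change was 0.97 ± 0.33 (SE, edgeR adjusted p = 0.0226), and the call was lost without HF mouse 23 (0.0530) or HFW mouse 40 (0.101). The electrogenic sodium/bicarbonate cotransporter Slc4a4, the most abundant of the group, averaged 1434 CPM in HFW, 1205 in HF, 1346 in NW and 1474 in N and did not pass (0.06, 0.820). Untested were the orphan Slc12a9 (96.0 CPM on average) and the chloride/bicarbonate exchanger Slc4a2 (57.6 CPM).

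**Figure D3:**
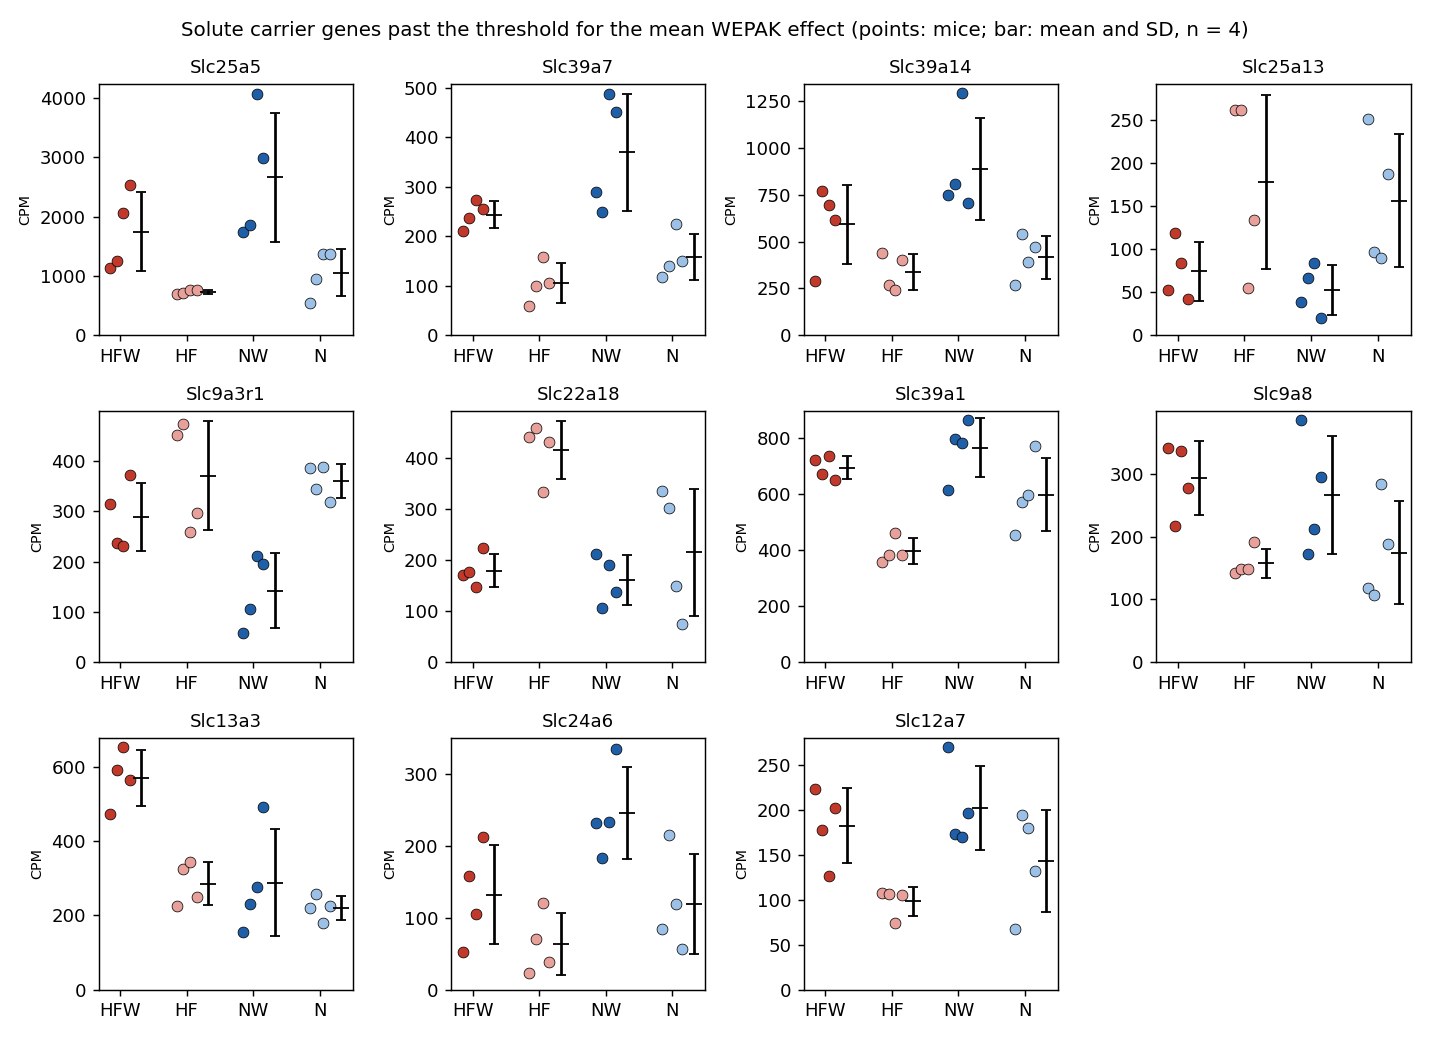
CPM of the 11 solute carrier genes past the threshold for the mean WEPAK effect, for each mouse (points) with the mean and SD of 4 mice (bars), in HFW, HF, NW and N. Slc25a5 and Slc39a7 do not overlap between mice with and without the extract on either diet, while Slc24a6 overlaps on both.

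Of the 3 carriers of phosphate, sulfate and dicarboxylates, Slc13a3, which brings succinate and other dicarboxylates into the cell with sodium, had 472, 592, 652 and 563 CPM in HFW livers, against 226, 325, 342 and 249 CPM in HF livers. In normal-diet mice it had 154, 230, 275 and 491 CPM in NW livers, against 218, 259, 179 and 225 CPM in N livers. All HFW mice stood above the HF mice, while NW mice 11 and 12 lay in or below the range of the N mice. Averaged over the diets, the log2 fold change was 0.66 ± 0.22 (SE, edgeR adjusted p = 0.0215), with 0.97 in HFW over HF (0.0267) and 0.35 in NW over N (0.523), and the difference between the diets did not pass (0.62, 0.997). The mean was lost without NW mouse 20 (0.51, 0.0848). The high-fat call was lost without HF mouse 23 (0.105), 25 (0.0593) or 29 (0.0610), or HFW mouse 36 (0.0584), 38 (0.0926) or 40 (0.0676), or with thinned libraries (0.0739). Slc26a1 averaged 2915 CPM in HFW, 3248 in HF, 3068 in NW and 3401 in N (mean log2 fold change -0.15, adjusted p = 0.535), and the phosphate transporter Slc20a1, with 106 CPM on average, was not tested.

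Among 4 organic ion carriers, Slc22a18, an imprinted gene of the organic cation family, fell. It had 170, 178, 147 and 223 CPM in HFW livers, against 440, 459, 333 and 431 CPM in HF livers. On the normal diet it had 212, 106, 190 and 137 CPM in NW livers, against 336, 302, 149 and 75.1 CPM in N livers. HFW and HF mice did not overlap, and NW mice lay inside the range of N mice. The mean log2 fold change was -0.84 ± 0.25 (SE, edgeR adjusted p = 0.0122), with -1.18 in HFW over HF (0.0199) and -0.51 in NW over N (0.406), and the difference between the diets did not pass (-0.67, 0.997). The high-fat call was lost without HF mouse 23 (0.0526), HF mouse 25 (0.0798) or HFW mouse 38 (0.0750). The cation/proton antiporter Slc47a1 did not pass (-0.34, 0.303), and the orphan Slc22a23 (67.1 CPM on average) was not tested.

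The scaffold Slc9a3r1, which anchors transporters at the apical, bile-facing membrane, had 315, 237, 231 and 372 CPM in HFW livers, against 452, 473, 259 and 297 CPM in HF livers. In the mice fed the normal diet it had 57.7, 106, 212 and 196 CPM in NW livers, against 386, 345, 389 and 319 CPM in N livers. NW and N mice did not overlap, and HFW and HF mice did. Over both diets the log2 fold change was -0.85 ± 0.23 (SE, edgeR adjusted p = 0.00688), with -1.38 in NW over N (0.0126) and -0.33 in HFW over HF (0.515). The NW over N call was lost without NW mouse 11 (0.0700) or NW mouse 12 (0.0540). Its difference between the diets was 1.05 ± 0.47 (SE), with an unadjusted p of 0.0322 and an adjusted p of 0.997, and it was the 1 solute carrier of 32 under an unadjusted 0.05 there.

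Amino acid carriers were the most abundant group, and none of 4 tested passed. Slc38a4 averaged 35006 ± 10539 CPM in HFW, 34004 ± 7513 in HF, 31078 ± 3015 in NW and 43943 ± 9025 in N (SD, n = 4 each), with a mean log2 fold change of -0.23 (edgeR adjusted p = 0.360). Slc38a3 averaged 2226 CPM in HFW, 3038 in HF, 2225 in NW and 3045 in N, and at -0.45 ± 0.18 (SE, adjusted p = 0.0537) it lay at the threshold. It passed with DESeq2 size factors (0.0482), in the DESeq2 Wald test (0.0322) and with libraries thinned to the smallest (0.0471). Among fits that left out mice it passed without NW mouse 20 (0.0448), HF mouse 28 (0.0268) or N mice 4 and 8 (0.0296). With each single mouse left out in turn, its fold change ran from -0.51 to -0.35, and the highest edgeR adjusted p was 0.163. The cationic amino acid transporter Slc7a2 averaged 504 CPM in HFW, 488 in HF, 736 in NW and 938 in N (-0.15, 0.689), and the lysosomal Slc36a1 had -0.27 (0.534). Untested were the taurine transporter Slc6a6, the lysosomal glutamine transporter Slc38a7, and Slc3a2 and Slc7a7, the heavy chain and one light chain of heteromeric amino acid transporters, at 41.7 to 76.4 CPM on average.

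Sugar carriers numbered 6, and none of the 4 tested passed in the mean over both diets. These were the glucose transporter Slc2a1 (0.17, edgeR adjusted p = 0.630), the glucose-6-phosphate carrier of the endoplasmic reticulum Slc37a4 (-0.03, 0.938), the sugar efflux transporter Slc50a1 (0.34, 0.354) and Slc45a3 (0.22, 0.579). Slc2a8 (60.3 CPM on average) and the fructose transporter Slc2a5 had too few tags. Slc2a5 is described because of its values, after they were seen. It had 3, 3, 0 and 1 tags in HFW livers, against 9, 22, 7 and 9 tags in HF livers, and 0, 7, 1 and 4 tags in NW livers, against 10, 7, 11 and 5 tags in N livers. HFW counts lay below every HF count, and NW counts overlapped N counts, with the HF libraries the deepest. In the fit with no filter its mean log2 fold change was -1.77 (edgeR adjusted p = 0.00179), and over any 15 mice the highest adjusted p was 0.0250.

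The 4 monocarboxylate carriers included 1 tested gene, Slc16a5, with 1035, 790, 673 and 329 CPM in HFW livers, against 773, 1328, 980 and 1111 CPM in HF livers. With the normal diet the levels were 269, 298, 909 and 216 CPM in NW livers, against 1546, 409, 493 and 525 CPM in N livers. NW mouse 15 and N mouse 4 stood far above the other mice of their groups, and the means were 707 CPM in HFW, 1048 in HF, 423 in NW and 743 in N. Averaged over the diets, the log2 fold change was -0.71 ± 0.32 (SE, edgeR adjusted p = 0.0986), and it passed without NW mouse 15 (-1.01, 0.00995) and with no filter (-0.84, 0.00696). Over any 15 mice the fold change ran from -1.01 to -0.41, and the highest edgeR adjusted p was 0.284. Slc16a13 (107 CPM on average) and the creatine transporter Slc16a12 (60.1 CPM) were not tested.

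Of the remaining genes none passed. Slc27a2 averaged 2203 CPM in HFW, 2187 in HF, 3055 in NW and 2708 in N (mean log2 fold change 0.09, edgeR adjusted p = 0.702). The lysosomal histidine and peptide transporter Slc15a4 had 0.41 (0.141), the thiamine transporter Slc19a2 0.51 (0.165), the choline transporter-like Slc44a2 0.48 (0.287) and the nucleoside transporter Slc29a1 -0.09 (0.822). The ascorbate transporter Slc23a1 (101 CPM on average) and the biotin and pantothenate transporter Slc5a6 (43.9 CPM) were not tested.

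The differences on the high-fat diet and on the normal diet rest on separate mice and can be set side by side. In HFW over HF 5 of the 32 genes passed, where 9.85% of all genes did: Slc25a5, Slc39a7, Slc39a1 and Slc13a3 higher (4.21% of all genes) and Slc22a18 lower (5.64%). In NW over N 4 passed, where 11.0% of all genes did: Slc25a5, Slc39a7 and Slc39a14 higher (3.63%) and Slc9a3r1 lower (7.36%). Groups did not overlap for 7 of the 32 in HFW against HF (15.7% of all genes) and for 5 in NW against N (15.5%). The 2 sets of log2 fold changes had the same sign in 24 of 32 genes (75.0%, and 75.5% over all genes), with a Pearson r of 0.82 over the 32 and 0.76 over all 1046. For the difference between the WEPAK effects of the 2 diets 0 of 1046 genes passed in edgeR, the DESeq2 Wald test or limma-voom, and 26 (2.49%) had an unadjusted p under 0.05 in edgeR. With no filter on low counts, 3 solute carriers passed in HFW over HF, Slc25a5, Slc22a18 and Slc2a5 (1.04% of 10171 genes), and 2 in NW over N, Slc25a5 and Slc9a3r1 (0.688%). Those shares are over every gene with a tag, while the solute carriers had 50 or more, so the 2 are not comparable. The count of 5 fell to 1 without HF mouse 23, HF mouse 25, HFW mouse 38 or HFW mouse 40, and to 3 without HF mouse 29. The count of 4 fell to 2 without N mouse 4 or NW mouse 15. Without N mice 4 and 8 together 8 passed in HFW over HF, with Slc12a9 and Slc2a5 entering under the lowered filter, and only Slc9a3r1 passed in NW over N. Slc12a9 entered only through WEPAK mice and Slc2a5 only through mice without WEPAK, in each case the side where it was high. The count of 8 is therefore not comparable with 5 of 32.

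**Figure D4:**
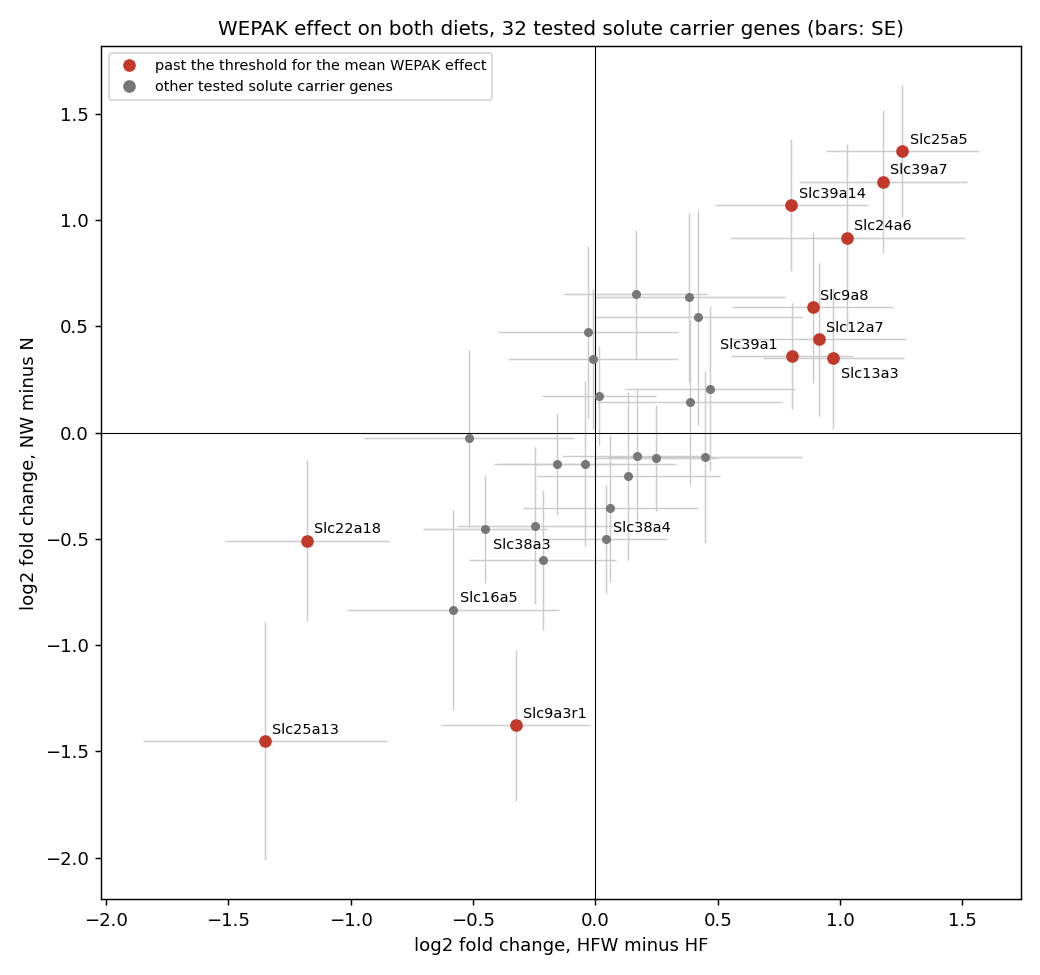
Log2 fold change of the 32 tested solute carrier genes in NW over N (vertical) against HFW over HF (horizontal), with standard errors. Genes past the threshold in the mean of both (red) lie in the upper right, 8 genes, and the lower left, 3 genes.

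Diet itself called no solute carrier. In HF over N 0 of 32 passed (1 gene of 1046, 0.0956%), with 3 under an unadjusted p of 0.05 (9.85% of all genes): Slc22a18 at 0.91, Slc7a2 at -0.96 and Slc39a1 at -0.59. In HFW over NW 0 of 32 passed (0% of all genes), again with 3 under an unadjusted 0.05 (12.0% of all genes): Slc13a3 at 1.00, Slc9a3r1 at 1.10 and Slc2a1 at -0.80. In the mean of both diet differences 0 passed (0.574% of all genes) and 12 were under an unadjusted 0.05, where 20.6% of all genes were, with Slc13a3 (0.68, edgeR adjusted p = 0.0817) and Slc7a2 (-0.75, 0.0985) nearest to the threshold. The DESeq2 Wald test and limma-voom also called 0 of 32 in each of these. Without N mouse 4, 107 genes passed in the mean of both, and 3 of them were solute carriers. These were Slc7a2 (-0.87, edgeR adjusted p = 0.0159), Slc25a5 (-0.66, 0.0341) and Slc16a5 (0.96, 0.0193). In that fit Slc7a2 also passed in HF over N (-1.20, 0.0342). Groups did not overlap for Slc4a4 in HF against N (3.06% of all genes) and for Slc25a26 and Slc9a3r1 in HFW against NW (8.80% of all genes).

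Transporters outside the solute carriers came from a list of 68 symbols, 65 of them in the table, 63 with a tag and 15 tested. In the mean WEPAK effect 5 were higher (15.2% of all genes) and 1 lower (16.1%). The 5 were Trfr2, the hepatocyte transferrin receptor that senses iron (1.09 ± 0.19), Abcc6 (0.81 ± 0.24), the cholesterol exporter Abca1 (0.79 ± 0.23), the mitochondrial Abcb10 (0.64 ± 0.25) and Abca3 (0.49 ± 0.18, SE). Bsg, basigin, the chaperone that brings monocarboxylate carriers to the membrane, was lower at -1.92 ± 0.26 (SE, edgeR adjusted p = 7.4e-06). On each diet the log2 fold change of Bsg was below 0, at -1.55 in HFW over HF and -2.29 in NW over N. The median over the 15 was 0.08, against 0.03 over all genes tested.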

How the data were processed

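Total liver RNA of 16 mice was made into SuperSAGE libraries by oligo-dT priming, NlaIII and EcoP15I digestion, adapter ligation and PCR, per the labels' protocols. Per the file headers, the table the authors deposited gives whole tag counts for each RefSeq transcript and mouse, not normalized. The sources used here do not say how tags were matched to transcripts. Neither molecular identifiers nor a batch are named in the labels, so PCR copies of a tag could not be told from separate molecules.

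The members and gene lists were chosen with earlier results of these data known. Of 26782 rows, 417 without a gene symbol (0.0729% of tags) were left out, 40 of 41 symbols turned into dates were restored, and counts were summed per symbol. The quasi-likelihood model of edgeR 4.0.16 (R 4.3.3), fitted robustly with 1 mean per group over all 16 mice, used TMM factors and the package's expression filter with a minimum count of 10. The F test was adjusted by Benjamini-Hochberg per contrast over 1046 genes at 0.05. Approximate standard errors were derived from F and the log2 fold change. The fit was tested on simulated data. Same-group libraries differed beyond sampling noise (chi-square per degree of freedom 2.76 to 12.4), so none was counted as a duplicate.

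Genes named with every mouse's value are those past the threshold in any contrast. The 10 most abundant are given as group means, and the rest by substrate group. Slc2a5, and the single-mouse values of Slc16a5, were added after their values were seen. The values of 2 untested genes are not reported here. Predicted tags come from the last NlaIII site of the GENCODE vM21 transcript that matches the RefSeq row. Alternatives tried were size factors from DESeq2, no filter, a minimum of 10 tags in 4 libraries, limma-voom (limma 3.58.1), the Wald test of DESeq2 1.42.0, only the compared groups, a non-robust fit, RefSeq rows not summed, and each mouse left out. Leaving out N mice 4 and 8 together and thinning to 56655 tags were chosen after seeing the data.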

Additional observations from a re-analysis of the deposited data

Results flagged for a closer look

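In 18 named genes and 4 groups, 72 sets of 4 mice were examined for a mouse far from the other 3, and 9 were found. Chance flags about 1 in 20 such sets. Slc38a4 stood at 35577 CPM in NW mouse 20, where the other NW mice had 29167 to 29871. Slc27a2 stood at 3017 CPM in HFW mouse 40 (others 1822 to 2019). Slc4a4 stood at 1855 CPM in HFW mouse 36 (others 1258 to 1339) and at 1933 CPM in N mouse 8 (others 1293 to 1360). Slc16a5 stood at 909 CPM in NW mouse 15 (others 216 to 298) and at 1546 CPM in N mouse 4 (others 409 to 525). Slc39a14 stood at 1290 CPM in NW mouse 15 (others 707 to 806). Slc9a8 stood at 191 CPM in HF mouse 29 (others 143 to 148), and Slc12a7 at 74.0 CPM in HF mouse 28 (others 105 to 107).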

How the results depend on the processing

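No paired analysis was possible because the 16 mice all carry different numbers. In the mean WEPAK effect the count of genes ran from 254 to 386 over all alternatives and that of solute carriers from 8 to 13, against 327 and 11. Leaving out 1 mouse gave 263 to 386 genes and 9 to 13 solute carriers, and Slc39a7, Slc39a14, Slc39a1, Slc25a5, Slc25a13, Slc22a18 and Slc9a3r1 passed in all 16 such fits. With no filter 65 genes were higher and 189 lower, against 159 and 168.

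In HFW over HF, against 103 genes and 5 solute carriers, leaving out 1 mouse gave 40 to 150 genes (40 without HF mouse 25, 52 without HF mouse 23, 59 without HFW mouse 38 and 65 without HFW mouse 40) and 1 to 7 solute carriers. No filter gave 3 solute carriers, thinning 3, and leaving out N mice 4 and 8 gave 155 genes and 8. In NW over N, against 115 and 4, leaving out 1 mouse gave 31 to 178 genes (31 without N mouse 4, 178 without N mouse 8, 75 without NW mouse 11, 76 without NW mouse 12 and 51 without NW mouse 15) and 2 to 4 solute carriers. No filter gave 70 genes and 2, and leaving out N mice 4 and 8 gave 38 and 1. In HF over N, against 1 gene, the DESeq2 Wald test gave 2, limma-voom, the compared groups alone and thinning each 0, and leaving out 1 mouse 0 to 31 genes and 0 to 1 solute carriers. In HFW over NW, against 0, the compared groups alone gave 3 genes, and leaving out 1 mouse 0 to 3. For the mean diet effect, against 6 genes and 0 solute carriers, no filter gave 30 genes, the DESeq2 Wald test 34, leaving out N mice 4 and 8 55 genes and 2 solute carriers, and leaving out 1 mouse 0 to 107 (107 without N mouse 4) and 0 to 3. The cause of these changes was not tested, beyond the smaller number of mice where mice were left out.

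As CPM without normalization factors, the sum over all 58 genes was 45530 in NW, and without Slc38a4 it was 17974 in HFW, 17989 in HF, 18994 in NW and 18932 in N. Of 3216 fold changes of named genes under the alternatives, 157 changed sign, all of them past the threshold in neither fit and at most 0.36 in size in the main result. At 7.06 to 21.2 CPM per tag, 26 of the 58 genes had too few tags for the main test, and of these Slc2a5 alone passed in the mean WEPAK effect with no filter.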
